A study of Mus musculus with 8 samples.

Results

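The 10 genes described here belong to the bone morphogenetic protein (BMP) pathway and were chosen by name. They were 4 ligands (Bmp2, Bmp4, Bmp6, Bmp7), 2 receptors (Bmpr1a, Bmpr2), the secreted inhibitor Grem1 and 3 Id genes (Id1, Id2, Id3). All 10 had a row among the 23861 genes of the hair follicle stem cell (HFSC) table, and 9 had one among the 16231 genes of the epidermal stem cell (EpdSC) table, where Bmp6 was not listed. The data were bulk RNA-seq libraries of cells sorted from telogen dorsal mouse skin, with 2 WT and 2 Msx2-KO libraries in each cell type. HFSCs were sorted as CD34+CD49f+Sca-1- cells and EpdSCs as CD34-CD49f+Sca-1+ cells. The Msx2-KO mice were homozygous for an allele with a neomycin cassette upstream of exon 2, which no Cre limits to the skin epithelium, and the WT controls were C57BL/6J mice. The labels give an age of 2 months for WT HFSCs and of 6 months for the other 3 groups. Age and genotype therefore cannot be told apart in HFSCs. Nothing in the labels says that replicates came from separate animals, so p-values measure the spread between these libraries, which may be technical.

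BMP ligands are secreted dimers that bring type I receptors such as BMPR1A and type II receptors such as BMPR2 together. The active receptors phosphorylate SMAD1, SMAD5 and SMAD9, which enter the nucleus with SMAD4 and switch on target genes, the Id genes being among the best known. Id proteins lack a DNA-binding region and hold back basic helix-loop-helix transcription factors by pairing with them. Gremlin 1, the product of Grem1, binds BMP ligands outside the cell and keeps them from their receptors. In the telogen hair follicle, BMP signals hold bulge stem cells in quiescence, and in the epidermis BMP signals favour differentiation.

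The HFSC libraries held between 3132974 and 11016659 estimated counts, of which mitochondrial and ribosomal RNA genes took 11.2% and 41.4% in WT against 57.0% and 62.5% in the libraries labelled Msx2-KO. In EpdSCs this share went the other way, from 26.9% and 19.1% in WT to 5.16% and 9.61% in Msx2-KO. Of the 14422 HFSC genes tested, 0.118% and 0.964% were at 0 in the WT libraries, against 25.2% and 14.1% in those labelled Msx2-KO. In EpdSCs the corresponding shares at 0 were 1.73% and 1.29% in WT against 20.2% and 5.82% in Msx2-KO. Msx2 itself had 53 and 7 estimated counts in WT HFSCs against 40 and 18 in those labelled Msx2-KO. Its EpdSC values were 58.5 and 85.4 in WT against 150.3 and 22.2 in Msx2-KO. Counts per gene do not separate exons, and every direction between genotypes below rests on the labels. CPM here and below scales each library to the same total over the genes that are neither mitochondrial nor ribosomal RNA. The 8 bulge markers summed to 10488 and 12648 CPM in WT HFSCs and to 6695 and 6709 in Msx2-KO HFSCs. Of the 8, 5 lay below WT in both libraries and 1, Tcf3, above. Krt15 made up most of each sum, at 7495 to 9165 CPM in WT and 4300 to 5038 in Msx2-KO. The 6 suprabasal markers, among them Krt1 and Krt10, summed to between 329.8 and 336 in WT HFSCs and to 1426 and 5111 in Msx2-KO HFSCs, and 4 of the 6 lay above WT in both libraries. In EpdSCs the same 6 went the other way, from 16287 and 22590.3 in WT to 1822 and 5619 in Msx2-KO, with 4 of 6 below WT in both libraries. The 5 interfollicular basal markers summed to 15091 and 18034 in WT EpdSCs and to 40339 and 36783 in Msx2-KO EpdSCs. Of them 2 lay above WT, Ly6d (372 and 266 to 17600 and 4742) and Krt14 (5968 and 7085 to 16744 and 21414). Itgb4 alone lay below, going from 617 and 932 to 7.83 and 89.3. The 7 bulge markers listed in EpdSCs summed to 7528 and 9190 in WT against 12867 and 16606 in Msx2-KO, so this sum, most of it Krt15, which basal epidermis also expresses, did not tell EpdSCs from HFSCs. Of the same list Lgr5 (0 to 3.86 CPM) and Lhx2 (0.272 to 3.19 CPM) were near 0 in every EpdSC library, while Krt15 (6639 to 13836), Itga6 (683 to 2920.3) and Nfatc1 (33.3 to 129.8) were not. Ly6a, which encodes Sca-1, was not analysed here in HFSCs, nor Cd34 in EpdSCs. Column names also run in different series for the 2 genotypes of each cell type, so any difference in handling cannot be told apart from genotype. Msx2-KO HFSC and WT EpdSC columns share a series, which is the Msx2-KO side in HFSCs and the WT side in EpdSCs. What a series stands for is not stated. The part of these differences in the results on the BMP genes was not tested. In bulk samples, fewer cells of a type and less RNA per cell cannot be told apart.

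The upstream sequence of Grem1, the member with the lowest p in HFSCs, is shown because BMP-activated SMADs are known to bind the GC-rich palindrome GGCGCC. RefSeq promoters (GRCm38.p6) were matched for 7 of the 10 genes, all but Bmp2, Bmp7 and Id1, and searched over the 250 bases before the start site. GGCGCC reads the same on both strands, and 3149 of 32851 promoters (9.59%) held it. That share is over all promoters and was not matched for GC content, so it is no measure of enrichment in the members. It was in the upstream bases of 4 members, Bmpr1a, Bmpr2, Grem1 and Id2, and not in those of Bmp4, Bmp6 and Id3. Of these 250 bases, GENCODE places 141 in exons for Bmpr1a, 161 for Id2 and all 250 for each of Bmpr2, Bmp6 and Id3, and 0 for Grem1 and Bmp4. The 250 bases before the Grem1 start site lie at chr2:113758649-113758898 on the minus strand and overlap no annotated exon. Capitals mark the match.
Grem1 upstream: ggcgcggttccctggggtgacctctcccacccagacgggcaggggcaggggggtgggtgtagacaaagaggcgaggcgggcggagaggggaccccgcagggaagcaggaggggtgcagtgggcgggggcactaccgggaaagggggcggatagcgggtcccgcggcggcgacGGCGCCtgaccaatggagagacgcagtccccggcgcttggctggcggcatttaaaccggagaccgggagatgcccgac
The 30-base windows around the match in each of the 4 genes are set side by side below, 5′ to 3′ along the gene's own strand, with the match in capitals.
Bmpr1a (chr14:34502727-34502756, minus strand): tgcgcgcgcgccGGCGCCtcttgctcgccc
Bmpr2 (chr1:59764162-59764191, plus strand): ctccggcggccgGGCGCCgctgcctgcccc
Grem1 (chr2:113758709-113758738, minus strand): cgcggcggcgacGGCGCCtgaccaatggag
Id2 (chr12:25096306-25096335, minus strand): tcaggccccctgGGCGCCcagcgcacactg
The match began 198 bases before the start site in Bmpr1a, 105 in Bmpr2, 78 in Grem1 and 231 in Id2. A match in these letters is a description and does not show that a factor binds there.

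To set genes and cell types beside each other, values were expressed as CPM per kilobase of exon of each gene. On this level scale Id2 (119 ± 72.0, SD, n = 2) and Grem1 (116 ± 30.7) led the members in WT HFSCs, followed by Id1 (62.2 ± 0.264) and Id3 (26.4 ± 3.48). Id2 and Grem1 did not differ beyond their spread there, nor did Id2 and Id1, and neither did Bmpr1a (18.2 ± 1.31) and Bmpr2 (17.0 ± 0.602). Bmp7, Bmp2 and Bmp6 followed at 5.78 ± 1.08, 5.18 ± 0.909 and 3.28 ± 0.0873, and Bmp4 was lowest at 0.474 ± 0.0153, with Bmp7 and Bmp2 within each other's spread. WT EpdSCs had another order, led by Bmp4 (23.4 ± 3.12), Bmpr2 (21.7 ± 0.940) and Bmpr1a (21.0 ± 0.541), 3 levels within each other's spread. Id1 (16.3 ± 2.55), Bmp7 (13.3 ± 1.01), Id3 (6.59 ± 0.487), Bmp2 (6.21 ± 2.34) and Id2 (1.35 ± 0.549) came next, and Grem1 was at 0.481 ± 0.435. Id1 and Bmp7 lay within each other's spread, as did Id3 and Bmp2, and also Id2 and Grem1. Bmp4 was thus the lowest member in WT HFSCs and the highest by mean in WT EpdSCs, and Grem1 the lowest by mean in WT EpdSCs. In the libraries labelled Msx2-KO the highest levels were those of Grem1 (45.9 ± 0.471) and Id2 (40.3 ± 29.9) in HFSCs, which did not differ beyond their spread. In Msx2-KO EpdSCs the order began with Id1 (87.7 ± 1.58), Bmpr1a (36.6 ± 1.04) and Id2 (14.7 ± 4.01), each apart from the one before it by more than the spread, and ended with Grem1 (0.0646 ± 0.0198). Id2 and Bmpr2 (11.005 ± 1.30) did not differ beyond their spread there. The tables were filtered and normalized separately, so no test was made across cell types.

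**Figure D1:**
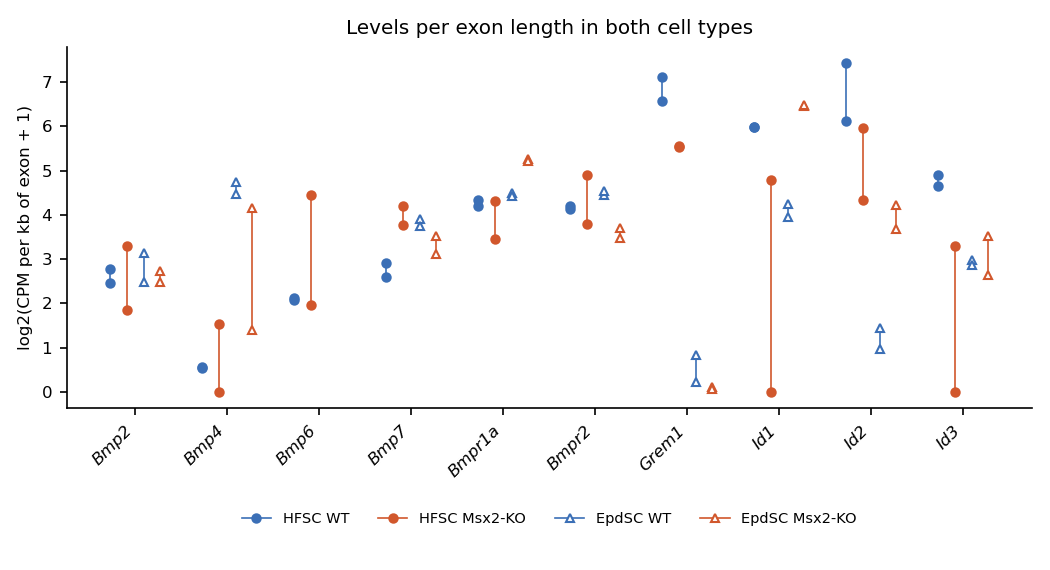
Level of each member gene as log2(CPM per kb of exon + 1), with filled circles for HFSC and open triangles for EpdSC libraries, blue for WT and orange for Msx2-KO, and a line joining the 2 libraries of a group. Grem1 and Id2 stand high in HFSCs and low in WT EpdSCs. Bmp4 is low in HFSCs and high in EpdSCs, except in Msx2-KO replicate 1. Long lines show the members whose Msx2-KO libraries differ most (Id1, Id3 and Bmp6 in HFSCs, Bmp4 in EpdSCs).

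Among the ligands in HFSCs, Bmp7 stood higher in both libraries labelled Msx2-KO, and Bmp2, Bmp4 and Bmp6 did not separate the genotypes. HFSC values below are normalized counts, estimated counts scaled by edgeR's TMM factors. Bmp7 (chr2:172868012-172940321, minus strand), which encodes a ligand active in skin and kidney, had 75.9 and 67.3 in WT against 148 and 215 in Msx2-KO HFSCs. Both Msx2-KO libraries lay above both WT libraries, with a log2 fold change of 1.34 (SE 0.481, unadjusted p = 0.0477, adjusted p = 0.267 with edgeR). Scaled by library totals alone the change was 0.44 (adjusted p = 0.888, edgeR). Bmp6 (chr13:38345107-38500302, plus strand), a ligand known from the inner bulge, had 37.6 and 41.8 in WT against 33.1 and 251 in Msx2-KO. Its high value came from Msx2-KO replicate 2 alone, and the log2 fold change of 1.83 (SE 1.13, adjusted p = 0.553, edgeR) was -0.26 without that library. The Bmp6 gene overlaps Txndc5 and 1 non-coding gene on the other strand, and no source says whether counting was strand-aware. Bmp2 (chr2:133552159-133562885, plus strand), a ligand that also reaches the follicle from the dermis, had 46.6 and 69.1 in WT against 90.7 and 28.7 in Msx2-KO, with overlapping groups and a log2 fold change of 0.05 (SE 0.971, adjusted p = 0.992, edgeR). Bmp4 (chr14:46383520-46390669, minus strand), a ligand of the dermal papilla and epidermis, had only 4 and 2 estimated counts in WT against 0 and 11 in Msx2-KO. It did not pass edgeR's filter on low counts and was left out of the main HFSC test, its counts being too low to show a difference at this depth.

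In EpdSCs Bmp4 was lower in both Msx2-KO libraries, as was Bmp7 in CPM but not in the deposited values, and Bmp2 overlapped on both scales. EpdSC values are the deposited normalized values, and fold changes are on the log2(value + 1) scale. Bmp4 had 573 and 683 in WT against 85.3 and 489 in Msx2-KO EpdSCs. The groups did not overlap, but replicate 2 of Msx2-KO lay much nearer WT than to its partner, and the log2 fold change was -1.61 (SE 1.02, adjusted p = 0.309 from limma). It was -0.36 without Msx2-KO replicate 1 and -2.86 without Msx2-KO replicate 2. Bmp4 overlaps the genes Gm15217 and Gm15222 on the other strand. Bmp2 had 195 and 332 in WT against 474 and 212 in Msx2-KO, so the groups overlapped (log2 fold change 0.31, SE 0.680, adjusted p = 0.750, limma). Bmp7 had 676 and 598 in WT against 726 and 545 in Msx2-KO, again with overlap (log2 fold change -0.02, SE 0.486, adjusted p = 0.984, limma). In CPM both Msx2-KO libraries (31.0 and 42.4) lay below both WT libraries (56.1 and 50.4), with a log2 fold change of -0.55 on that scaling (adjusted p = 0.401, limma).

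Of the receptors, Bmpr1a was higher in both Msx2-KO libraries of EpdSCs and overlapped in HFSCs, while Bmpr2 overlapped in both cell types, except in CPM in EpdSCs. Bmpr1a (chr14:34410734-34503341, minus strand) encodes the type I receptor whose loss is known to disturb follicle differentiation and bulge quiescence. In EpdSCs it had 1634 and 1554 in WT against 5559.7 and 2931 in Msx2-KO. The lower Msx2-KO library still lay well above both WT libraries, which were close together, and the log2 fold change was 1.34 (SE 0.568, adjusted p = 0.183, limma). In CPM the Msx2-KO libraries came close together, at 237 and 228 against 136 and 131 in WT, and the log2 fold change on that scaling was 0.80 (adjusted p = 0.240, limma). In HFSCs Bmpr1a had 351 and 367 in WT against 184 and 369 in Msx2-KO, with overlap (log2 fold change -0.38, SE 0.425, adjusted p = 0.795, edgeR). Its counts include fractions from split reads, and an antisense gene, Gm17110, overlaps it. Bmpr2 (chr1:59763400-59879014, plus strand), which encodes the type II receptor, had 904 and 995 in WT HFSCs against 1514 and 714 in Msx2-KO HFSCs. One Msx2-KO library lay above and the other below both WT libraries (log2 fold change 0.23, SE 0.427, adjusted p = 0.900, edgeR), and scaled by library totals alone the sign turned (-0.55). In EpdSCs Bmpr2 had 4547 and 4769 in WT against 5021 and 2331 in Msx2-KO. These groups overlapped too (log2 fold change -0.44, SE 0.609, adjusted p = 0.612, limma), whereas in CPM both Msx2-KO libraries (214 and 181) lay below both WT libraries (378 and 401). The log2 fold change on that scaling was -0.98 (adjusted p = 0.193, limma).

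**Figure D2:**
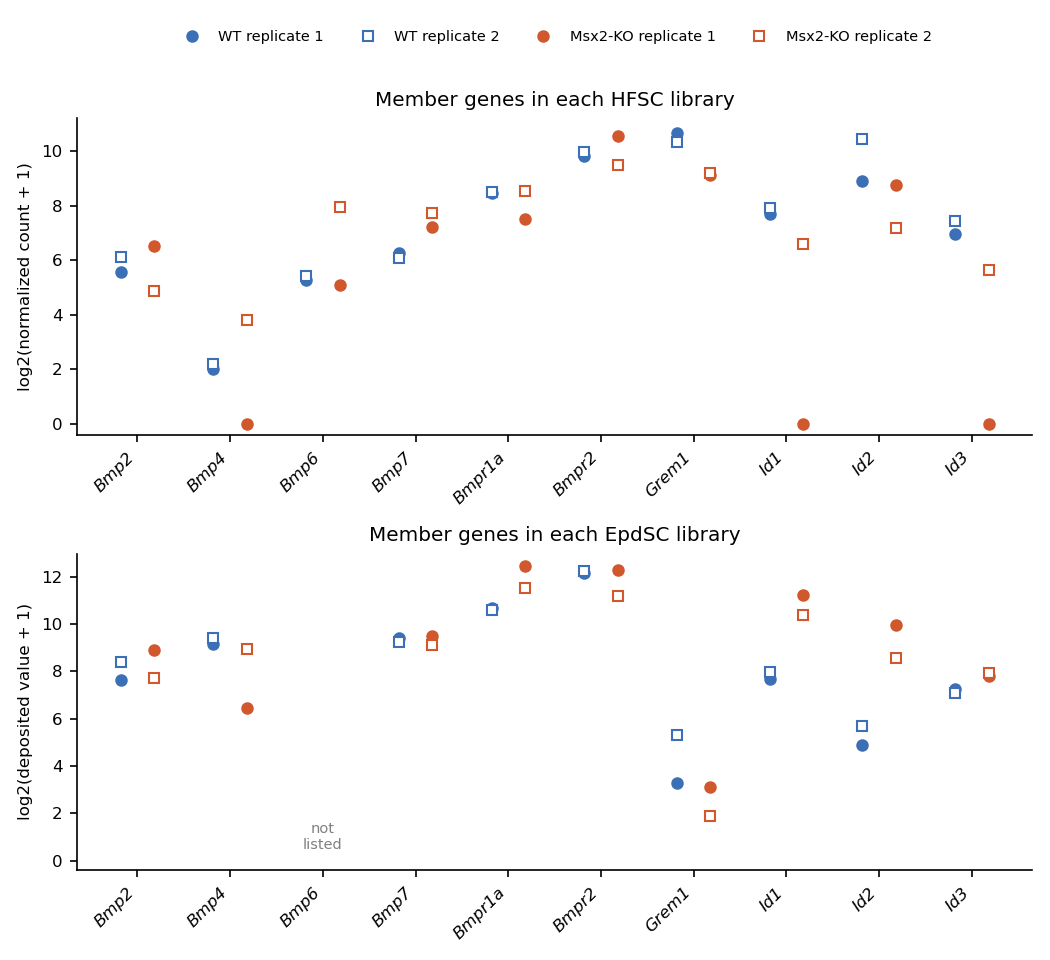
Value of each member gene in every library, as log2(normalized count + 1) in HFSCs (top) and log2(deposited value + 1) in EpdSCs (bottom), blue for WT, orange for Msx2-KO, filled circles for replicate 1 and open squares for replicate 2. In HFSCs Grem1 has both Msx2-KO points close together below WT, while Id1 and Id3 have 1 Msx2-KO library at 0, and in EpdSCs Id1, Id2 and Bmpr1a have both Msx2-KO points above WT.

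Grem1 (chr2:113746164-113758646, minus strand) was lower in both Msx2-KO libraries of HFSCs and had the smallest SE of the members there. It had 2187 and 714 estimated counts in WT HFSCs against 908 and 489 in those labelled Msx2-KO. After scaling these became 1643 and 1299 in WT against 556 and 584 in Msx2-KO, or 1471 ± 243 (SD, n = 2) against 570.2 ± 19.5 (SD, n = 2). Both Msx2-KO libraries lay below both WT libraries, and the 2 differed from each other by 1.05-fold. The log2 fold change was -1.37 (SE 0.242), with an unadjusted p = 0.00429 and an adjusted p = 0.143 with edgeR. DESeq2 called Grem1 lower (log2 fold change -1.34, adjusted p = 0.0164), as did limma-trend (-1.35, adjusted p = 0.0387), and the other 6 settings with all 4 libraries did not. Its log2 fold change lay between -2.27 and -1.29 across those 8 settings and between -1.62 and -1.21 with each library left out. The bulge marker sum was lower in the same libraries, as given above. The fibroblast markers Pdgfra, Col1a1 and Col1a2 summed to 93.2 and 108 CPM in WT against 52.4 and 22.4 in Msx2-KO HFSCs. Pdgfra was at 0 in both Msx2-KO libraries and at 6.51 and 1.63 CPM in WT. Its value in WT replicate 2 was at the floor of 3 counts. The dermal papilla markers, 3 of 6 listed, summed to 38.0 and 34.9 CPM in WT against 5.91 and 25.5 in Msx2-KO HFSCs. Wif1 and Hhip lay below WT in both libraries. Crabp1, at only 1.82 and 0 CPM in WT, was at 0 in both Msx2-KO libraries. The part of these markers in the Grem1 difference was not tested. In EpdSCs Grem1 was near the floor, with values of 8.67 and 38.9 in WT against 7.64 and 2.696 in Msx2-KO. These values stood for about 8 and 41 reads in WT and 6 and 4 in Msx2-KO, and the lower WT library lay close to the Msx2-KO ones (log2 fold change -1.80, SE 0.978, adjusted p = 0.254, limma), and none of the 6 fibroblast markers was listed in that table.

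The 3 Id genes lay below WT in both Msx2-KO libraries of HFSCs and above WT in both Msx2-KO libraries of EpdSCs, except that Id3 overlapped there in CPM. Id1 (chr2:152736251-152737410, plus strand), a direct SMAD target, had 278 and 132 estimated counts in WT HFSCs against 0 and 80 in those labelled Msx2-KO, or 209, 240.1, 0 and 95.5 after scaling. The library at 0 was Msx2-KO replicate 1, the deepest of the 4, in which Id1 was at least 122-fold lower than the WT mean by a floor of 3 counts in that library. That library also had the fewest genes with 1 or more counts, 11409 against 14251 in Msx2-KO replicate 2 and 22447 and 19595 in WT. The bound covers counting error only. The fitted log2 fold change was -2.25 with an SE of 2.10 (adjusted p = 0.735, edgeR), and it was -1.25 without Msx2-KO replicate 1.

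Id3 (chr4:136143497-136145755, plus strand), which is regulated much like Id1, had 165 and 95 estimated counts in WT HFSCs against 0 and 41 in Msx2-KO HFSCs. Again only Msx2-KO replicate 1 was at 0, at least 80.7-fold below the WT mean, and replicate 2 had 49.0 normalized counts against 124 and 173 in WT. The log2 fold change was -2.62 (SE 2.13, adjusted p = 0.682, edgeR), and -1.61 without Msx2-KO replicate 1. A count of 0 at such a WT level was uncommon but not unique to the Id genes in that library. Among the 5327 tested genes with a WT mean of at least 100 normalized counts, 200 (3.75%) were at 0 in that library and 52 in Msx2-KO replicate 2. Among the 3004 with a WT mean of at least 200, the numbers were 42 (1.40%) and 18.

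Id2 (chr12:25093799-25097140, minus strand), an Id gene that is also set by signals other than BMP, had 481 and 1386 normalized counts in WT HFSCs against 435 and 145 in Msx2-KO HFSCs. The groups did not overlap, but WT replicate 1 and Msx2-KO replicate 1 were close, and the 2 WT libraries differed by 2.88-fold. The log2 fold change was -1.68 (SE 0.793, adjusted p = 0.408, edgeR), and it was -0.83 without WT replicate 2 and -2.72 without Msx2-KO replicate 1. Id2 counts include fractions from split reads.

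In EpdSCs, where all mice were 6 months old, Id2 and Id1 had the lowest adjusted p-values of the members. Id1 had 203 and 249 in WT against 2353 and 1324 in Msx2-KO EpdSCs, or 226 ± 33.2 (SD, n = 2) against 1839 ± 728 (SD, n = 2), an 8.14-fold ratio of means. The lower Msx2-KO value was still several times the higher WT value, and the log2 fold change was 2.97 (SE 0.558, unadjusted p = 0.00690, adjusted p = 0.0588, limma). Id2 had 28.2 and 50.3 in WT against 1003 and 373 in Msx2-KO, or 39.2 ± 15.6 against 688 ± 446 (SD, n = 2), a 17.5-fold ratio of means. All Msx2-KO values again lay far above WT, with a log2 fold change of 3.99 (SE 0.751, unadjusted p = 0.00694, adjusted p = 0.0589, limma). Neither gene was called with a pseudocount of 1, and with a pseudocount of 10 both were (adjusted p = 0.0424 for Id1 and 0.0436 for Id2, limma), while the other 5 settings with all 4 libraries gave 0.0530 to 0.0905. Calls without a WT library say nothing on either gene, since 1 WT library has no spread of its own. With each library left out the log2 fold change ran from 2.55 to 3.38 for Id1 and from 3.27 to 4.70 for Id2. In CPM, Id1 was at 16.8 and 21.0 in WT against 100.5 and 103 in Msx2-KO, and Id2 at 2.34 and 4.23 against 42.8 and 29.0. Id3 had the smallest change of the 3, with 149 and 133 in WT against 221.6 and 241 in Msx2-KO (log2 fold change 0.71, SE 0.464, adjusted p = 0.320, limma). On the CPM scale the Id3 groups overlapped, with 12.4 and 11.2 in WT against 9.46 and 18.8 in Msx2-KO, and the log2 fold change was 0.18. The immune list summed to 44.5 and 3.51 CPM in WT EpdSCs. Its markers Ptprc, Cd3e and Cd207 were at 0 in both Msx2-KO libraries and at or below the floor of 3 reads in WT replicate 2. In WT replicate 1 they were at 7.83, 3.96 and 1.71 CPM. The basal and bulge sums were higher and the suprabasal sum lower in Msx2-KO, as given above. The part of these markers in the Id1, Id2 and Bmpr1a values was not tested.

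Counted over the 9 members tested in HFSCs, edgeR called 0, against 0% of the 14422 genes tested. Grem1 and Bmp7 had an unadjusted p under 0.05, 2 of 9 members, against 2614 of all genes, or 18.1%. Only Bmp7 had both Msx2-KO libraries above both WT libraries, 1 of 9 against 17.5% of all genes. Grem1, Id1, Id2 and Id3 lay below in both, 4 of 9 against 33.5%, and Bmp2, Bmp6, Bmpr1a and Bmpr2 overlapped. DESeq2 called 1 of 9 members, Grem1, against 4.78% of genes. The median log2 fold change of the 9 members was -0.38, and that of all genes -0.14. In EpdSCs limma called 0 of 9 members, against 9.35% of the 16231 genes tested, and Id1 and Id2, 2 of 9, had an unadjusted p under 0.05, against 35.3%. There 4 of 9 members lay above WT in both Msx2-KO libraries (Bmpr1a, Id1, Id2 and Id3), against 27.8% of all genes, and 2 of 9 lay below (Bmp4 and Grem1), against 44.5%. In CPM 3 of 9 lay above (Bmpr1a, Id1 and Id2), against 21.7% of all genes, and 4 of 9 below (Bmp4, Bmp7, Bmpr2 and Grem1), against 51.2%. In HFSCs the members above (1 of 9) and below (4 of 9) were as many in CPM, against 18.0% and 32.2% of all genes. The median log2 fold change in EpdSCs was 0.31 for the members and -0.64 for all genes. At 2 against 2 libraries the smallest two-sided p of an exact permutation test on 1 gene is 0.333.

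**Figure D3:**
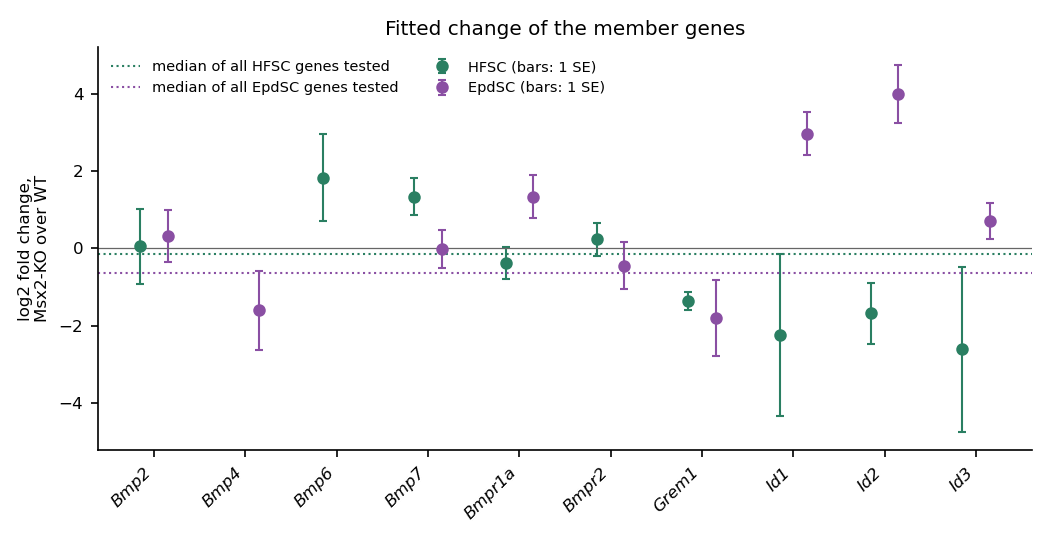
Log2 fold change of each member gene, Msx2-KO over WT, with bars of 1 SE, in HFSCs (green, edgeR) and EpdSCs (purple, limma on log2(value + 1)), and dotted lines at the median of all genes tested in each cell type. The Id genes lie on opposite sides of 0 in the 2 cell types, the bars of Id1 and Id3 in HFSCs are the longest, and Grem1 in HFSCs has the shortest bar.

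Further genes of the pathway were taken from a list of 51, of which 35 were tested in HFSCs and 28 in EpdSCs. In HFSCs edgeR called 0 of the 35, 6 had an unadjusted p under 0.05 (18.1% of all genes did) and DESeq2 called 2 (4.78% of all genes), the inhibitor Fst and the receptor Acvr2b. Both Msx2-KO libraries lay above WT for 4 of the 35, against 17.5% of all genes, and below for 15, against 33.5%, and the median log2 fold change was -0.54, against -0.14 for all genes. Follistatin (Fst), which traps activins and some BMPs, had 1707 and 2543 normalized counts in WT against 709.7 and 984 in Msx2-KO HFSCs. Both Msx2-KO values lay below WT (log2 fold change -1.33, SE 0.337, adjusted p = 0.143 with edgeR and 0.0386 with DESeq2). Acvr2b, a type II receptor for activins and BMPs, had 78 and 40 estimated counts in WT against 0 in both Msx2-KO libraries, at least 18.3-fold below the WT mean by a floor of 3 counts per library (adjusted p = 0.143 with edgeR and 0.00558 with DESeq2).

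By role, 7 of the 11 inhibitors tested in HFSCs lay below WT in both Msx2-KO libraries and none above, against 33.5% and 17.5% of all genes, with a median log2 fold change of -1.33, against -0.14. Nbl1, a DAN-family BMP antagonist, had 526 and 440.2 in WT against 175 and 158 in Msx2-KO (log2 fold change -1.54, SE 0.2703, adjusted p = 0.143, edgeR). Sostdc1, an inhibitor of both BMP and WNT signals, overlapped, with 239.6 and 207 in WT against 63.1 and 297 in Msx2-KO. Of the 8 receptors and co-receptors, 2 lay above and 2 below. The co-receptor Rgma had 243 and 224 in WT against 371 and 264 in Msx2-KO, and the type II receptor Acvr2a overlapped. Of the 6 Smads, 1 lay above and 2 below, among them Smad5 (471 and 557 in WT, 414 and 213 in Msx2-KO), and Smad1 overlapped. Smad4, the shared partner of the receptor-activated SMADs, had 198 and 191 in WT against 126 and 62.1 in Msx2-KO HFSCs (log2 fold change -1.04, SE 0.528, adjusted p = 0.446, edgeR). Among the 4 processing genes, Furin, a protease that cuts BMP precursors, lay below WT (309 and 349 against 186 and 266) and Pcsk6 overlapped. The 5 further targets included Gata3, above WT in both libraries (519 and 484 against 871 and 568), and Id4, below (415 and 825 against 221.9 and 383), neither of them called. Bmp3 was the only further ligand tested and overlapped. Bambi and Msx1, named after their values were seen, were also at 0 in both Msx2-KO libraries, from 29 and 29 and from 10 and 10 estimated counts in WT. Setting the 3 genes at 0 to their bound left each median as given.

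In EpdSCs limma called 2 of the 28 pathway genes, Smad4 higher and Bmp8b lower, against 9.35% of all genes, and 6 had an unadjusted p under 0.05, against 35.3%. Both Msx2-KO libraries lay above WT for 9 of the 28, against 27.8% of all genes, and below for 9, against 44.5%, with a median of 0.28, against -0.64 for all genes. In CPM the numbers were 7 above, against 21.7% of all genes, and 9 below, against 51.2%. Smad4 had 759 and 769 in WT against 6526 and 13302 in Msx2-KO EpdSCs. The WT libraries were close together and both Msx2-KO libraries lay far above them, with a log2 fold change of 3.61 (SE 0.590, adjusted p = 0.0480, limma), which over the other settings with all 4 libraries had an adjusted p from 0.0386 to 0.105. Without either WT library it was not called (adjusted p = 0.393 in both fits, limma). Bmp8b, a BMP8 ligand, had 29.2 and 11.4 in WT and was listed at 0 in both Msx2-KO libraries (adjusted p = 0.0432, limma). Over the other settings with all 4 libraries its adjusted p ran from 0.0194 to 0.0963, and the call was lost with a pseudocount of 10 and under the replicate block. With each library left out the Bmp8b log2 fold change ran from -4.92 to -3.63. The inhibitors Sostdc1 and Twsg1 had the highest means of their role, and both lay above WT. Sostdc1 had 1206 and 1417 in WT against 17083 and 3157 in Msx2-KO (log2 fold change 2.49, SE 0.998, adjusted p = 0.170, limma). Twsg1, which binds BMPs together with chordin, had 1339.8 and 1259.6 in WT against 8848 and 5929.9 in Msx2-KO (log2 fold change 2.48, SE 0.505, adjusted p = 0.0651, limma). In all, 3 of the 9 inhibitors lay above and 3 below. Fst was among those below, with 380.2 and 662 in WT against 337 and 239.9 in Msx2-KO. Of the 8 receptors and co-receptors, 2 lay above and 4 below, with Rgmb (2984 and 2700.3 against 2669 and 2373) and Acvr2b (78.0 and 112 against 0 and 27.6) below and Tgfbr3 overlapping. Smad1 lay above WT (779.9 and 719.9 against 2057 and 1028), and Smad5 overlapped. Bmp1, a protease that acts on chordin, lay below (569.7 and 667 against 127 and 291), while Furin and Bmp3 overlapped. Both further targets lay above WT, Gata3 with 11989 and 10293 against 14339.7 and 16295 and Id4 with 96.4 and 178 against 868 and 291, and neither was called. In CPM the Gata3 groups overlapped.

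**Figure D4:**
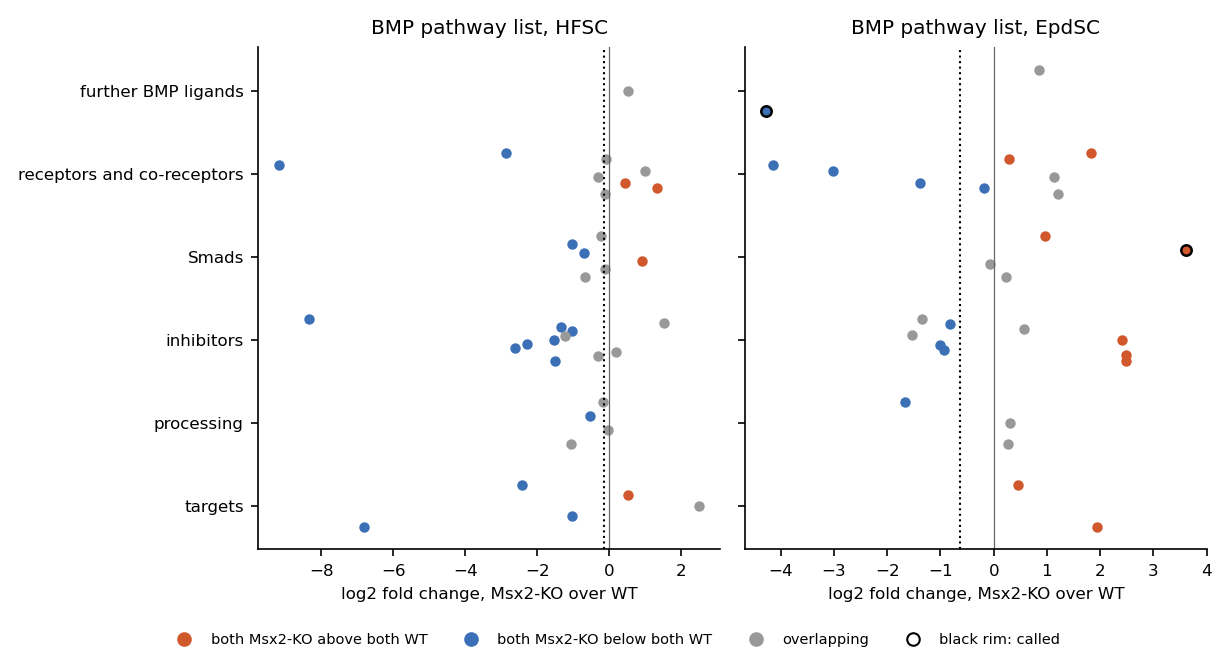
Log2 fold change, Msx2-KO over WT, of each tested gene of the BMP pathway list by role, in HFSCs (left) and EpdSCs (right), orange where both Msx2-KO libraries lay above both WT libraries, blue where both lay below, grey where they overlapped, with a black rim for called genes and a dotted line at the median of all genes tested. The 3 HFSC points below -6 are genes at 0 in both Msx2-KO libraries (Acvr2b, Bambi and Msx1), whose fitted values depend on the prior count, and the 2 rimmed EpdSC points are Smad4 and Bmp8b.

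How far each member rested on a single library was read by leaving out each of the 4 in turn. Grem1 in HFSCs and Id1, Id2 and Id3 in both cell types kept their sign in all 4 fits, as did Bmp7 in HFSCs and Bmpr1a, Bmp4 and Grem1 in EpdSCs. The sign turned for Bmp2, Bmp6, Bmpr1a and Bmpr2 in HFSCs and for Bmp2, Bmp7 and Bmpr2 in EpdSCs. Fits with a single Msx2-KO library assume that it varies like the 2 WT libraries. Calls from fits with a library left out are not counted over the members, since 1 group then has no spread of its own.

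**Figure D5:**
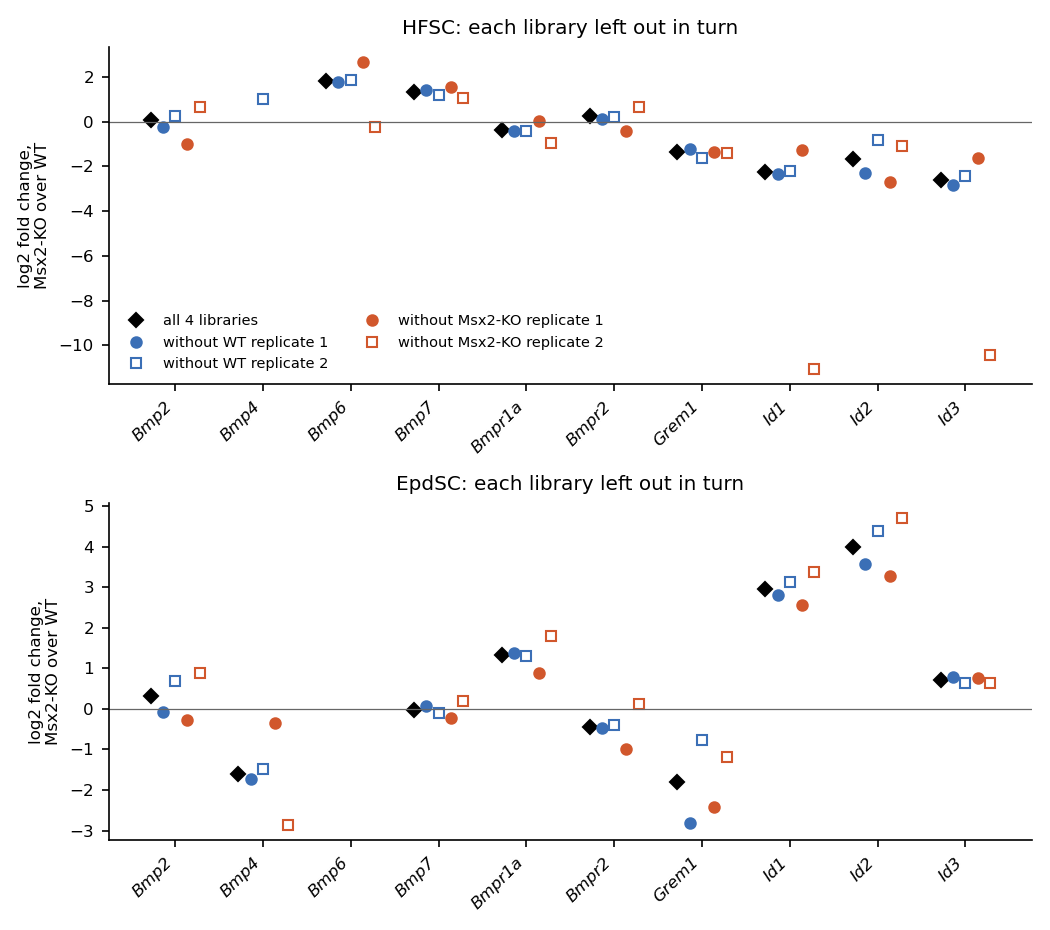
Log2 fold change of each member gene, Msx2-KO over WT, with all 4 libraries (black diamonds) and without each library in turn (blue for a WT library left out, orange for Msx2-KO, circles for replicate 1 and squares for replicate 2), in HFSCs (top) and EpdSCs (bottom). Without Msx2-KO replicate 2 the HFSC values of Id1 and Id3 drop to -11.04 and -10.44, since the remaining Msx2-KO library is at 0, and among these fits Bmp4 passed the HFSC filter only without WT replicate 2.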

How the data were processed

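Total RNA of sorted HFSCs and EpdSCs was made into stranded libraries, and the authors aligned the reads with STAR 2.7.3a in Partek Flow to GRCm38/mm10 and counted them on GENCODE genes. Strand use in counting is not given in the sources used here. The HFSC table, as deposited by the authors, holds unnormalized estimated counts, with reads that match several genes split into fractions. The EpdSC table was deposited as a normalized signal. The authors scaled each library of estimated counts by a factor of its own and dropped low genes by a rule that is not given. The value of 1 read was 1.08 and 0.949 in WT, against 1.27 and 0.674 in Msx2-KO EpdSCs. The authors' own comparisons of the genotypes, with fold changes and p-values, were not used.

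HFSC counts were rounded to whole numbers and tested with edgeR 4.0.16 (quasi-likelihood, TMM, filterByExpr) on 14422 genes, in R 4.3.3. For EpdSCs limma 3.58.1 was run on log2(value + 1), with all 16231 genes. Calls needed an adjusted p (Benjamini-Hochberg) under 0.05 together with a change of over 2-fold, thresholds taken from the paper's methods. Alternatives included DESeq2 1.42.0. Both tests were also run on simulated data, at a dispersion (spread between replicates) below the 0.823 estimated for the HFSC counts. Those runs do not show how the tests do at the spread of the HFSC data. Normalized HFSC counts are counts divided by the effective library size and multiplied by the geometric mean of those sizes. Exon lengths and positions came from GENCODE M21 and promoter sequences from RefSeq, both on GRCm38. Conditions were taken from the sample labels, and the number of columns of values left without a sample was 0. Bounds and floors cover counting error only.

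The genes named were the 10 members, the pathway genes called by edgeR, DESeq2 or limma, and up to 2 further genes per role with the highest mean in that cell type. The members, the pathway list and the marker lists were chosen with earlier results of these data known, so counts over them support nothing on their own. Replicate numbers are shared by WT and Msx2-KO, but deviations of same-numbered libraries from their group means did not go together (correlations across genes of -0.0444 in HFSCs and -0.0225 in EpdSCs), and the numbers were not used as pairs.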

Additional observations from a re-analysis of the deposited data

Results flagged for a closer look

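The Id genes went in opposite directions in the 2 cell types, with every Msx2-KO library below WT in HFSCs and above WT in EpdSCs, except that the Id3 groups in EpdSCs overlapped as CPM outside mitochondrial and ribosomal RNA genes. The log2 fold change of Id1, a SMAD target that restrains helix-loop-helix factors, was -2.25 in HFSCs and 2.97 in EpdSCs. For Id2 the values were -1.68 in HFSCs and 3.99 in EpdSCs, and for Id3 they were -2.62 in HFSCs and 0.71 in EpdSCs. The difference between the cell types was not tested, because the tables were normalized separately, and none of the 6 changes was called with all 4 libraries by the main tests. WT and Msx2-KO mice differed in age in HFSCs and not in EpdSCs. Column names put Msx2-KO HFSCs and WT EpdSCs in the same series, so a difference between series cannot be told apart from these opposite directions.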

How the results depend on the processing

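In HFSCs edgeR called 0 genes higher and 0 lower, with 2614 at an unadjusted p under 0.05. DESeq2 called 330 higher and 360 lower, limma-trend 158 and 1249, library totals 16 and 35, and a minimum of 10 counts in every library 2 and 0, while RLE factors, leaving out mitochondrial and ribosomal RNA genes and no filter gave 0 and 0. With each library left out, 90 to 2711 HFSC genes were called higher and 35 to 6561 lower. With the replicate number as a block (replicate block) 145 were called higher and 86 lower in HFSCs, and 178 and 1093 in EpdSCs, and no member was called under the block in either cell type. In EpdSCs limma called 255 higher and 1263 lower, and with each library left out 0 to 3745 and 0 to 6631, the lowest without either WT library. A pseudocount of 0.1 gave 162 higher and a pseudocount of 10 gave 619.

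Bmp2 in HFSCs turned to -0.14 with limma-trend, -0.65 with library totals, -0.14 under the block, and with a library left out ranged from -1.01 to 0.67 (-0.24 without WT replicate 1, -1.01 without Msx2-KO replicate 1). With a library left out Bmp6 ranged from -0.26 to 2.65, Bmpr1a from -0.97 to 0.01 (0.0131) and Bmpr2 from -0.44 to 0.67, and Bmpr2 to -0.55 with library totals. In EpdSCs Bmp2 turned to -0.22 without mitochondrial and ribosomal RNA genes, and with a library left out Bmp2 ranged from -0.26 to 0.89, Bmp7 from -0.22 to 0.19 and Bmpr2 from -0.998 to 0.11. With library totals in HFSCs Bmp7 went to 0.44, Bmp6 to 0.89 and Bmpr1a to -1.27, and under the block Id1 went to -4.37 and Id3 to -4.60. The causes were not tested. Of the other values of members under an alternative, 84 in HFSCs and 76 in EpdSCs kept their direction and side of the threshold, and 13 and 8 kept their direction and passed it. Count tests on EpdSC reads were not run, since only 80.3% to 86.9% of low values in a library were whole multiples of 1 read's value (within 0.1 of a read). Library totals moved the HFSC median of all genes from -0.14 to -1.002, and leaving out mitochondrial and ribosomal RNA genes moved the EpdSC median from -0.64 to -1.14. At 2 libraries per group, and with up to 25.2% of tested genes at 0 in a library, values of members under about 100 counts carry little weight. The share at 0 did not follow depth in HFSCs. It was 25.2% in Msx2-KO replicate 1, the deepest library, and 0.964% in WT replicate 2, the shallowest. The cause was not tested.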
